A study of Rattus norvegicus with 80 samples.

Results

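The data described here are 38 genes that were low in the normal rat mammary gland and higher in mammary tumors than in pads of 3 Nf1-mutated rat lines. They were selected on the counts themselves, as CPM (a gene's count divided by the library total, times 1e6). A member had a mean under 2 CPM in wildtype whole mammary pads and under 4 CPM in each of wildtype mammary epithelial cells (MECs), adipocytes and fibroblasts. In each of the lines IF, PS and IFPS, the median of the tumors plus 0.1 CPM was also at least 4 times the median of the pads plus 0.1 CPM. Of 32883 Ensembl rat genes in the deposited table, 26518 had at least 1 count, 13086 of these passed the wildtype limits and 38 passed the whole rule, which is 0.29% of those 13086. Without the wildtype limits 75 genes met the 4-fold condition. Since the rule used tumors, pads of the same line and all wildtype tissues, the differences between tumors and pads are given as a description and were not tested.

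The series holds 80 RNA-seq libraries of Rattus norvegicus in 19 groups. Whole pads, which hold the gland within its fat, came from 6 wildtype, 3 IF, 6 PS and 6 IFPS samples, and tumors came from 5 IF, 9 PS and 9 IFPS samples. MECs, adipocytes and fibroblasts came from 3 samples each of wildtype and of every line, the adipocytes as mature cells and the other cell types after culture to near confluency. The labels call the lines IF, PS and IFPS, and the series describes them as Nf1-mutated. The alleles, the age of the animals and what the names stand for are not given in the sources used here. The labels also do not say whether samples of a group came from separate animals, so p-values measure the spread between these samples.

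Nf1 encodes neurofibromin, a protein that switches off Ras by speeding up the hydrolysis of its bound GTP. Loss of neurofibromin leaves Ras and the kinases below it more active, and Nf1 is a known tumor suppressor in several tissues. The mammary pad is a mixed tissue in which ducts of luminal and basal epithelium run through adipocytes, fibroblasts, vessels and immune cells. A gene can therefore be silent in each of the 3 purified cell types and still be read from another cell type of the pad.

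The deposited table names genes by Ensembl identifier alone, and 0 of 32883 identifiers could be matched to a symbol in the reference table used here. Members are therefore called by rank, in the order of the lowest of their 3 line medians in tumors, and 4 of them by identifier. CPM are not divided by gene length, so the ranks order read counts and not RNA copies. These are ENSRNOG00000012546 (rank 1), ENSRNOG00000051372 (rank 13), ENSRNOG00000011599 (rank 21) and ENSRNOG00000015401 (rank 33), chosen after their values were seen. Levels of the mutated gene, lists of cell type markers and promoter sequences were not analysed here. In place of markers, 4 sets of identifiers were taken from the wildtype libraries: 329 MEC-enriched, 366 adipocyte-enriched and 69 fibroblast-enriched identifiers (at least 10 CPM and 8-fold above both other cell types) and 343 seen in pads only (at least 5 CPM and 8-fold above every cell type). The score of a set is its mean log2(CPM + 1) in a library, and no member belongs to a set.

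Library totals ranged from 17.3e6 to 37.3e6 counts with a median of 26.3e6, so that 3 counts corresponded to 0.0804 CPM in the deepest library and 0.173 CPM in the shallowest. In the MEC-enriched score 3 IFPS tumors stood apart. IFPS tumors 6, 8 and 9 had scores of 2.81, 1.80 and 1.36, and the other 20 tumors had scores from 4.18 to 5.74. IFPS tumor 6 had an adipocyte-enriched score of 5.35, above the highest pad at 4.95, and IFPS tumor 8 was low in all 3 cell-enriched scores, with 2.58 for adipocytes and 2.66 for fibroblasts. IF tumors 1 and 2 had the lowest MEC-enriched scores among the remaining tumors, 4.99 and 4.18. The IF adipocytes also stood apart from the other adipocytes, with MEC-enriched scores of 3.53, 1.44 and 3.21 against 0.692 to 1.27 in the other 9. The part that the mixture of cells has in the levels below was not tested, and in bulk samples fewer cells of a type and less RNA per cell cannot be told apart.

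The rule asks for high medians in the tumors of every line, so the numbers of members present in tumors are a description. Counting a member as present at 2 CPM or more, IF tumors 1 to 5 had 17, 11, 34, 31 and 29 of the 38 members. The 9 PS tumors had from 18 to 33 with a median of 29, and the 9 IFPS tumors had from 2 to 33 with a median of 31. The 21 pads had 0 to 4 members present, with a median of 1, and the 36 cell libraries had 0 to 5. Of the 38 members, 9 were present in fewer than 12 of the 23 tumors. No pad reached the number of the lowest of the 20 tumors that remained without IFPS tumors 6, 8 and 9, which was 11.

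**Figure D1:**
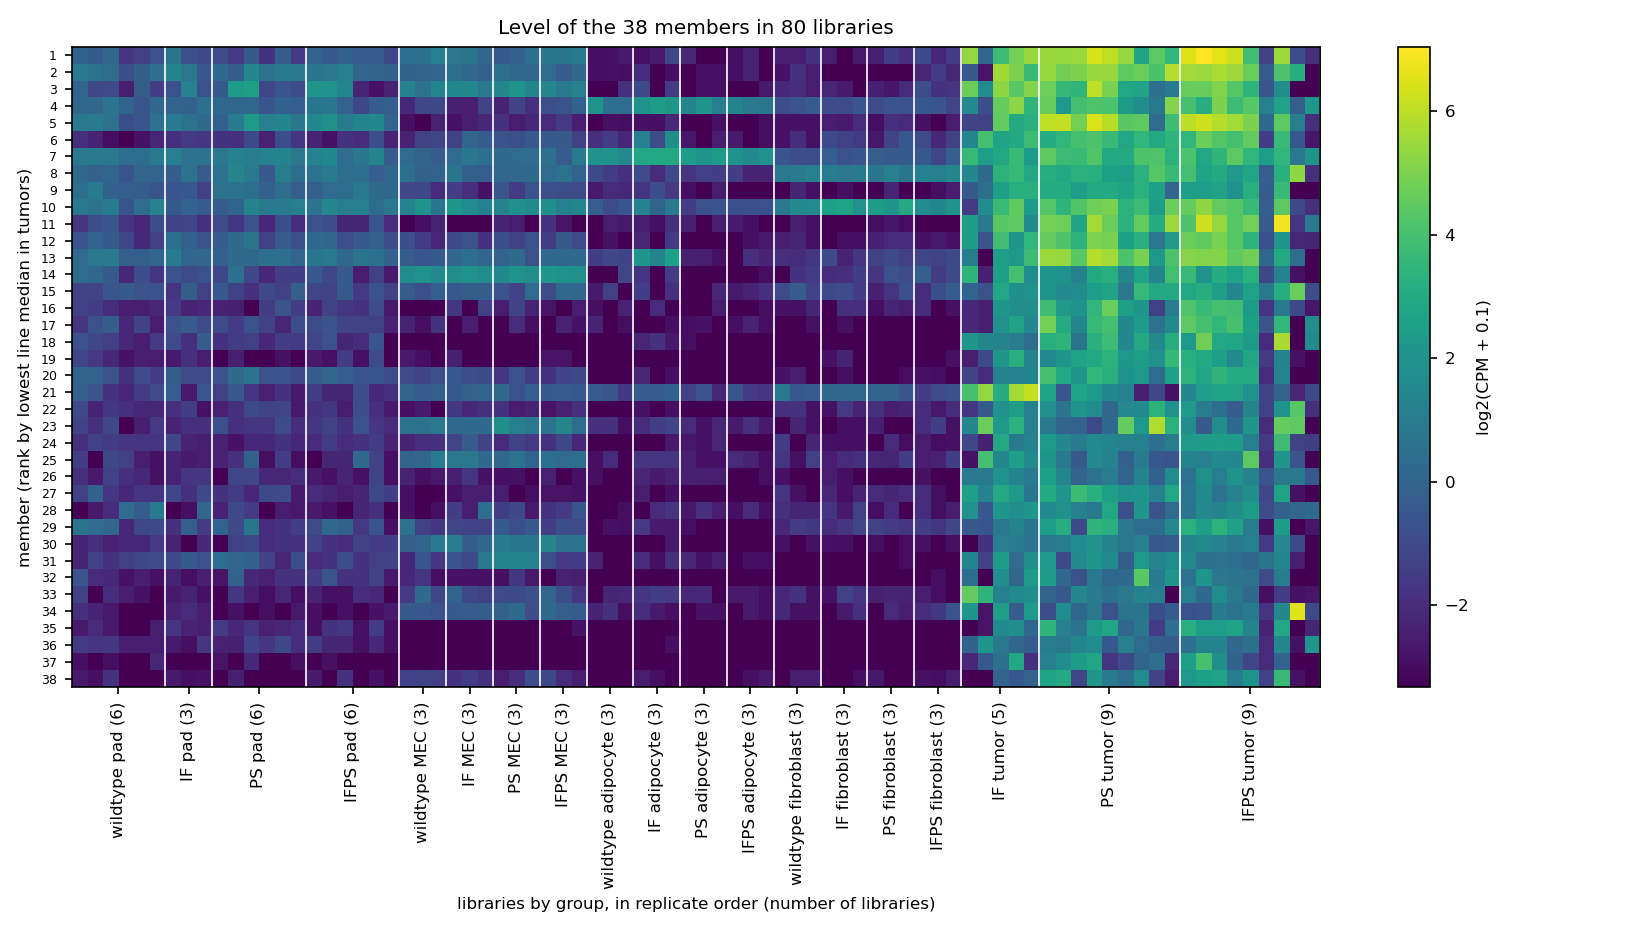
Level of each member (rows, by rank) in each library (columns, grouped), as log2(CPM + 0.1) in color. Tumor columns are bright over most rows, and the dark columns among the IFPS tumors are tumors 6, 8 and 9, with 2, 7 and 5 members present.

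The summed level of the members was 10.8 to 34.5 CPM in pads, 22.5 to 30.6 CPM in MECs, 8.62 to 14.3 CPM in fibroblasts and 6.66 to 10.8 CPM in adipocytes other than IF, in which it was 19.04 to 27.8 CPM. Tumors had sums from 23.7 to 659 CPM with a median of 341 CPM, and 21 of 23 tumors lay above the highest pad. The 2 tumors within the range of pads were IFPS tumors 6 (23.7 CPM) and 9 (25.1 CPM). IFPS tumor 8 summed to 220 CPM, of which the member ranked 34 alone gave 41.5%.

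The size of the step between pads and tumors, which the rule required to be at least 4-fold, had a median over members of 8.46-fold in the IF line and 10.9-fold in each of the PS and IFPS lines. The largest ratios were 58.1 in IF, 95.4 in PS and 57.4 in IFPS. Just inside the limit in their lowest line were the members ranked 31, 13 and 17 at 4.16, 4.23 and 4.40-fold, and just outside were 3 other genes at 3.96, 3.86 and 3.85-fold. The offset of 0.1 CPM sets the ratio of the lowest members. The member ranked 37 had no count in any of the 3 IF pads, a median of 0.621 CPM in IF tumors and a ratio of 7.21. The lowest of the 3 line medians in tumors ran from 0.616 CPM at rank 38 to 28.4 CPM at rank 1, with a median of 2.32 CPM.

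How broadly a member was on differed between members. The number of tumors in which a member exceeded all 21 pads ran from 13 to 23 of 23, with a median of 19. The member ranked 26 exceeded all pads in 23 of 23 tumors with values of 0.545 to 5.64 CPM in tumors against at most 0.368 CPM in pads. The members ranked 7, 11 and 34 did so in 22 tumors. The member ranked 28 did so in 13, and its highest pad, at 1.75 CPM, was a wildtype pad. With IFPS tumors 6, 8 and 9 set aside after their scores were seen, 7 members exceeded every pad in all 20 remaining tumors. The rule selected members for tumor medians above those of pads, so these numbers are a description, and no share over all genes is given.

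ENSRNOG00000012546 was the member with the highest rank. Its lowest, median and highest values were 6.53, 42.3 and 84.1 CPM in PS tumors and 0.165, 45.5 and 131 CPM in IFPS tumors. IF tumors 1 to 5 had 40.4, 0.975, 13.7, 28.4 and 43.2 CPM. All 9 PS tumors, 4 of 5 IF tumors and 6 of 9 IFPS tumors lay above the highest pad, and the 4 tumors that did not were IF tumor 2 and IFPS tumors 6, 8 and 9. Pads ranged from 0.182 to 1.48 CPM. In cells its highest levels were in MECs, with 1.25, 1.31 and 2.24 CPM in wildtype MECs against at most 0.36 CPM in adipocytes and 0.385 CPM in fibroblasts.

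ENSRNOG00000051372 was close to 1 CPM in all pads, from 0.784 to 1.87 CPM. Its lowest, median and highest values were 4.51, 30.2 and 58.2 CPM in PS tumors and 0, 22.7 and 35.8 CPM in IFPS tumors. IF tumors 1 to 5 had 1.99, 0, 5.46, 4.47 and 13.5 CPM, so that 3 of 5 IF tumors lay below all PS tumors and the other 2 lay above the lowest PS tumor alone. The 2 zeros were IF tumor 2 and IFPS tumor 9.

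**Figure D2:**
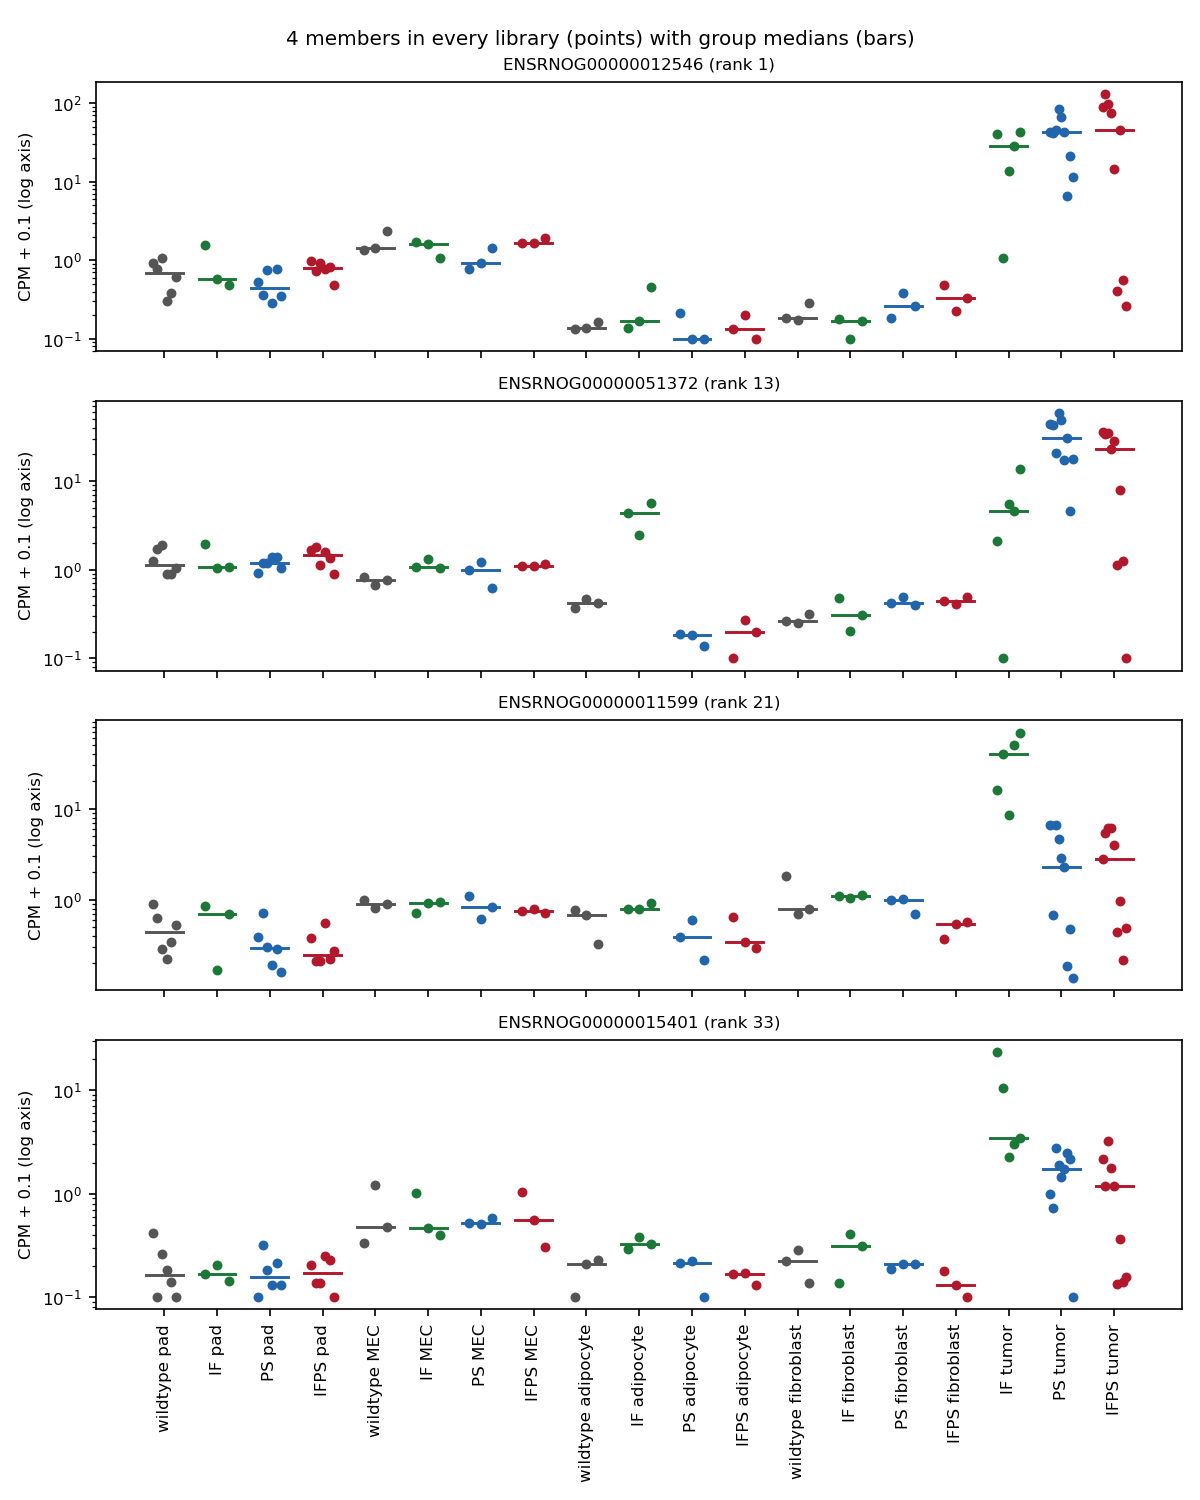
CPM + 0.1 on a log axis for 4 members in all 80 libraries, with points for libraries in replicate order and bars for group medians. ENSRNOG00000012546 and ENSRNOG00000051372 exceeded all pads in most tumors of every line, and the second had its lowest tumor median in IF. ENSRNOG00000011599 and ENSRNOG00000015401 were highest in IF tumors.

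The members were not alike in the little signal they gave in normal tissue. A grouping made after the data were seen assigned each member to the wildtype tissue with its highest mean, or to none where every wildtype mean was under 0.2 CPM. Of the 38 members, 13 were highest in MECs, 13 in whole pads, 2 in adipocytes and 2 in fibroblasts, and 8 were under 0.2 CPM everywhere. The summed level of the members highest in pads was 5.004 to 11.9 CPM in wildtype pads, 2.97 to 4.50 CPM in wildtype MECs, at most 0.725 CPM in wildtype adipocytes and at most 1.16 CPM in wildtype fibroblasts. The rule bounds all of these levels from above and does not order them.

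In most tumors each of these groups summed to more than in any wildtype tissue. The 13 members highest in MECs summed to 14.2 to 17.2 CPM in wildtype MECs. In IF tumors they summed to 75 to 123 CPM, in PS tumors to 76.4 to 227 CPM and in IFPS tumors to 1.26 to 248 CPM. The 13 members highest in pads summed to 10.2 to 147 CPM in IF tumors, 49 to 340 CPM in PS tumors and 6.58 to 330 CPM in IFPS tumors. The 8 members under 0.2 CPM in wildtype tissue summed to 4.52 to 33 CPM in IF tumors, 18.7 to 47.2 CPM in PS tumors and 2.08 to 54.1 CPM in IFPS tumors, against at most 2.12 CPM in wildtype pads. The low ends in IFPS came from the tumors that stood apart. Single members could differ from these sums, since the rule compared tumors with pads and not with wildtype cells. The member ranked 14 had 3.03 to 3.94 CPM in wildtype MECs and a median of 3.77 CPM in IFPS tumors. The member ranked 30 had 0.789 to 1.71 CPM in wildtype MECs and a median of 1.44 CPM in IF tumors.

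Single members led single tumors. In 8 of 23 tumors the member ranked 1 had the most reads among the members. The member ranked 5 led in PS tumors 1, 2 and 4 and IFPS tumor 5, with up to 90.2 CPM, and the member ranked 11 led in IFPS tumor 7 with 114 CPM, where it gave 24.7% of the sum. The member ranked 21 led in 3 of 5 IF tumors and in no PS or IFPS tumor. The member ranked 23 led in PS tumor 8 with 55 CPM, 25.6% of the sum, and had a median of 1.81 CPM over PS tumors.

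The silent end of the set was close to the limit of detection in cultured and purified cells. The members ranked 35 and 36 had 1 count each over the 36 cell libraries, and the member ranked 37 had 0. A count of 0 in a library allows for up to 3 counts. In pads these 3 members had 65, 86 and 11 counts over 21 libraries. In tumors they reached 10.9, 4.30 and 15.98 CPM in their highest library, and they were present in 12, 8 and 8 of 23 tumors. At the other end, 12 of 38 members reached 2 CPM in at least 1 of the 36 cell libraries and 6 of 38 did in at least 1 of the 21 pads.

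The tumors with few members were also described by these groups, and differences in proportion between the groups were not tested. In IF tumors 1 and 2, 8 and 6 of the 13 members highest in MECs were present, and 5 and 2 of the 13 members highest in pads. In the other 3 IF tumors these counts were 9 to 12 and 10 to 12. IFPS tumors 6, 8 and 9 had 0, 3 and 0 members highest in MECs and 0, 2 and 2 highest in pads. PS tumor 8 had the lowest number of members among PS tumors, 18, made up of 8 highest in MECs, 6 highest in pads and 4 others. Its MEC-enriched score was 5.74, within the range of the other PS tumors (5.45 to 5.74), and its adipocyte-enriched score was 4.17, above the 2.91 to 3.59 of the other PS tumors. The part of these scores in the numbers was not tested.

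**Figure D3:**
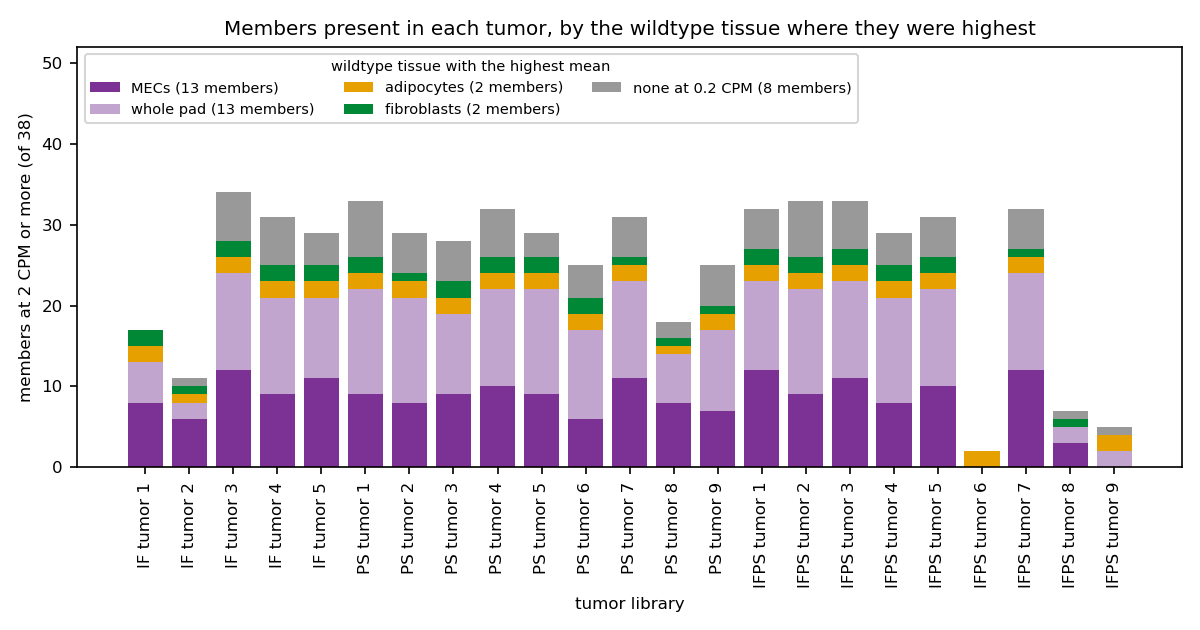
Members at 2 CPM or more in each of 23 tumors (bars), split by the wildtype tissue in which the member had its highest mean. Most bars reach 25 to 34 members, and IF tumors 1 and 2, PS tumor 8 and IFPS tumors 6, 8 and 9 are shorter.

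The 3 IFPS tumors that stood apart kept few members, and those of tumor 8 were not among those of tumors 6 and 9. IFPS tumor 6 had only the members ranked 4 and 7, the ones highest in wildtype adipocytes, at 2.08 and 5.28 CPM. IFPS tumor 9 had these and the members ranked 17, 18 and 36. IFPS tumor 8 had the members ranked 2, 5, 8, 15, 22, 23 and 34. The last of these stood at 91.4 CPM there, and at 0.205 to 2.74 CPM in the other IFPS tumors. Leaving the 3 tumors out of the rule gave 45 members, which included all 38.

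**Figure D4:**
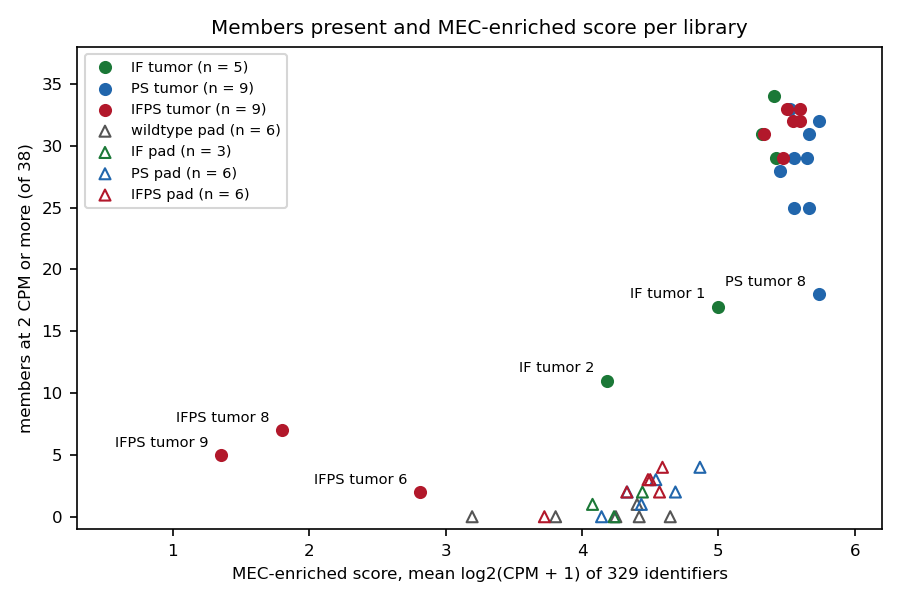
Members at 2 CPM or more against the MEC-enriched score, in tumors (filled circles) and pads (open triangles), 1 point per library. Most tumors cluster at scores above 5.3 with 25 or more members, pads lie at 0 to 4 members over scores from 3.19 to 4.87, and the 6 named tumors lie apart from the cluster.

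The next question was whether the 3 kinds of tumor differed in the members, a contrast that the rule did not use directly, although it required a 4-fold step in each line. The test was edgeR's quasi-likelihood test on the counts of all 23 tumors, with Benjamini-Hochberg adjustment over 15966 genes, and all 38 members were tested. By median level IF tumors were the lowest kind for 23 members, IFPS tumors for 11 and PS tumors for 4. The median over members of the log2 difference was 0.48 for PS minus IF, 0.43 for IFPS minus IF and −0.15 for IFPS minus PS, beside 0.02, 0.06 and 0.03 over all genes tested. Few single members passed the test. Among the 3 kinds, 2 members differed, and 7.65% of all genes tested did. Without IF tumor 1 or IF tumor 2 this count was 1. Between PS and IF tumors 1 member differed, lower in PS (2.48% of genes), and between IFPS and IF tumors 2 did, lower in IFPS (4.25% of genes). Between IFPS and PS tumors 0 members and 0.0% of genes passed, with 2 members at an unadjusted p under 0.05 and 0 members passing in DESeq2.

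ENSRNOG00000011599 was an IF-high member. IF tumors 1 to 5 had 15.8, 40.4, 8.55, 50.4 and 68.9 CPM. The lowest, median and highest values were 0.0393, 2.22 and 6.51 CPM in PS tumors and 0.116, 2.68 and 6.13 CPM in IFPS tumors, so that all 5 IF tumors lay above all 18 others. The log2 fold change was −4.05 ± 0.93 (SE) for PS minus IF, with an adjusted p of 0.0217 in edgeR, and −3.92 ± 0.92 for IFPS minus IF, with an adjusted p of 0.0182. Leaving out each tumor in turn kept the second call, with adjusted p from 0.0121 to 0.0462, and the first call was lost without IF tumor 2 (adjusted p = 0.06). In the MECs, adipocytes and fibroblasts of all lines it was between 0.116 and 1.72 CPM.

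ENSRNOG00000015401 was lower in IFPS than in IF tumors. IF tumors 1 to 5 had 23.3, 10.5, 2.19, 2.93 and 3.37 CPM, and the 2 highest were the IF tumors with the fewest members present. IFPS tumors had 0.0341, 1.08 and 3.12 CPM and PS tumors had 0, 1.62 and 2.69 CPM as lowest, median and highest values. The groups overlapped between 2.19 and 3.12 CPM. The log2 fold change for IFPS minus IF was −3.26 ± 0.87 (SE), with an adjusted p of 0.0363 in edgeR. The call was lost without IF tumor 1, IF tumor 2 or IFPS tumor 2, with adjusted p up to 0.112, and in a fit of IF and IFPS tumors alone (adjusted p = 0.101). For PS minus IF its log2 fold change was −2.74 with an adjusted p of 0.0919, and it passed there in DESeq2 (adjusted p = 0.0272).

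Without IFPS tumors 6, 8 and 9 the same fit called 4 members between PS and IF tumors and 5 between IFPS and IF tumors. The 2 members above were lower than in IF in each comparison. The members ranked 13 and 20 were higher in PS than in IF, by 2.505 and 2.01 on the log2 scale, with edgeR adjusted p of 0.0304 and 0.0381. The members ranked 18, 20 and 38 were higher in IFPS than in IF, by 2.49, 2.18 and 3.47, with edgeR adjusted p of 0.0287, 0.0392 and 0.04999. With the MEC-enriched score as a covariate over all 23 tumors, the 2 members above were called in each of these comparisons and no other member was. These alternatives were added after the data were seen. The shares of all genes that passed in them are not given here, so nothing particular to the members is read from these counts.

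Pads and cells of the mutated lines were compared with wildtype, tissue by tissue, with members limited to low wildtype levels by the rule. For pads the rule used both sides of this comparison. Each line's pad median was the denominator of the 4-fold step, so a gene raised in the pads of a line was less likely to become a member. The values for pads are therefore a description and do not answer whether such genes are on before tumors form. In whole pads 27 of 38 members had enough counts to be tested. No member passed in IF pads (0.0% of 16384 genes), PS pads (0.0061% of genes) or IFPS pads (0.0% of genes), in edgeR's quasi-likelihood test or in DESeq2. At an unadjusted p under 0.05 there were 3, 4 and 4 members. The median log2 fold change over the tested members was −0.10 for IF pads, 0.15 for PS pads and 0.08 for IFPS pads, beside −0.01, −0.00025 and 0.01 over all genes, and the members spanned −3.09 to 1.56. Pads carry title numbers 1 to 12 or 13 to 21, and this set was a covariate. Wildtype pads 4 to 6, of the second set, had lower member sums (10.8 to 17.7 CPM) than wildtype pads 1 to 3 (20.9 to 23.5 CPM), and their MEC-enriched scores were 3.19 to 4.40 against 4.25 to 4.65.

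In MECs 22 members were tested and 1 rose. No member passed in IF MECs (0.817% of 14688 genes, with 3 members at an unadjusted p under 0.05 and 0 in DESeq2). No member passed in IFPS MECs either (0.374% of genes, with 0 members at an unadjusted p under 0.05 and 0 in DESeq2). In PS MECs the member ranked 31 was higher (2.36% of genes). PS MECs 1 to 3 had 2.37, 2.40 and 2.33 CPM of it and wildtype MECs had 0.132, 0.539 and 0.221 CPM, so that the groups did not overlap. The log2 fold change was 2.95 ± 0.53 (SE), with an adjusted p of 0.0222 in edgeR. The call was lost without wildtype MEC 1, wildtype MEC 3, PS MEC 2 or PS MEC 3, with adjusted p up to 0.0773. The other lines had 0.572, 0.407 and 1.74 CPM in IF MECs and 0.47, 0.228 and 0.246 CPM in IFPS MECs. In PS tumors the same member ranged from 0.382 to 4.47 CPM with a median of 3.03 CPM.

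In adipocytes 7 members were tested, and 4 were higher in IF than in wildtype adipocytes. The transcriptome of the IF adipocytes differed widely, with 48.2% of 14304 genes passing in one direction or the other and 26.5% higher in IF. The median log2 fold change over the 7 was 1.18, beside 0.01 over all genes. The rule kept wildtype adipocytes low, which favors rises, and with 7 members tested nothing particular to the members is read from this count. The members ranked 6 and 13 had enough counts to be tested only through the IF adipocytes, which also favors rises. The fit without a filter on low counts called both as well, but it does not undo the limit the rule set on wildtype adipocytes. ENSRNOG00000051372 had 4.23, 2.35 and 5.60 CPM in IF adipocytes and 0.272, 0.362 and 0.32 CPM in wildtype adipocytes. Its log2 fold change was 3.74 ± 0.51 (SE), with an adjusted p of 0.000383 in edgeR. The groups did not overlap, and the IF adipocytes reached the level of the lower IF tumors. PS adipocytes had 0.0864, 0.0821 and 0.0386 CPM and IFPS adipocytes had 0, 0.173 and 0.0966 CPM, all below the wildtype adipocytes.

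The other 3 were the members ranked 6, 7 and 10. The member ranked 6 had 2.10, 0.421 and 3.44 CPM in IF and 0.17, 0.254 and 0.128 CPM in wildtype adipocytes, a log2 fold change of 3.48 ± 0.74 (SE; edgeR adjusted p = 0.00344). The member ranked 10 had 2.33, 0.911 and 1.83 CPM against 0.748, 0.435 and 0.576 CPM, a log2 fold change of 1.58 ± 0.38 (edgeR adjusted p = 0.00661). The member ranked 7, already the member with the highest level in wildtype adipocytes, had 7.15, 7.33 and 7.83 CPM against 3.77, 3.77 and 2.85 CPM, a log2 fold change of 1.18 ± 0.18 (edgeR adjusted p = 0.000705). For the members ranked 6, 10 and 13 IF adipocyte 2 was the lowest of its group, and it also had the lowest MEC-enriched score of the 3 (1.44), whereas the member ranked 7 was nearly equal in all 3. The pad-only score was 2.09, 1.55 and 2.23 in IF adipocytes against 0.885 to 1.01 in wildtype adipocytes, and the fibroblast-enriched score was 3.85, 3.14 and 3.66 against 2.08 to 2.36. The part of these scores in the result was not tested. All 4 calls remained when any 1 of the 12 adipocyte libraries was left out.

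**Figure D5:**
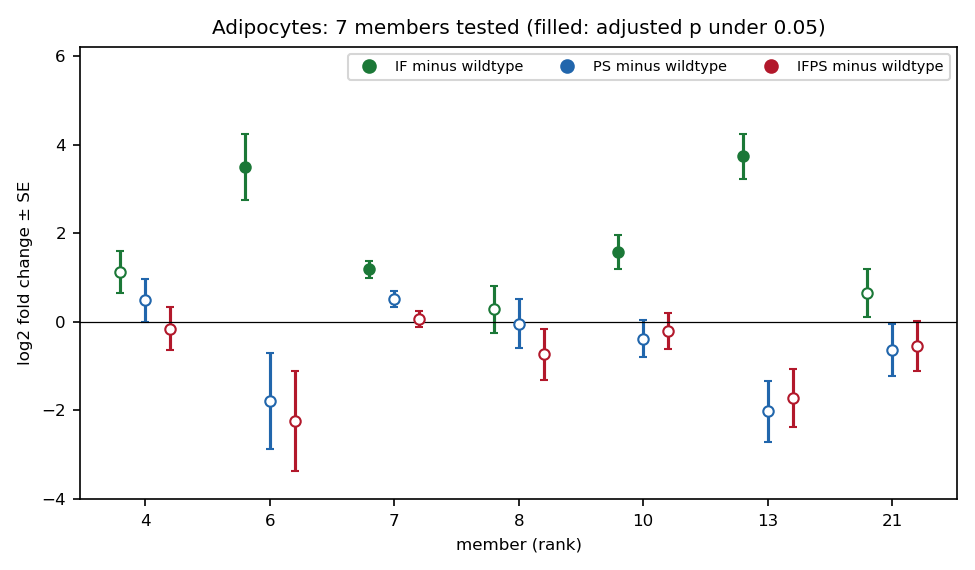
Log2 fold change against wildtype adipocytes with its SE for the 7 members tested, by line, from edgeR. Filled points passed the test and are all IF values, from 1.18 to 3.74.

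In PS and IFPS adipocytes no member passed, with 0.378% and 0.0% of genes. At an unadjusted p under 0.05 there were 2 members in PS and 1 in IFPS adipocytes, and DESeq2 called 0 in each. ENSRNOG00000051372 was one of them in each line, with log2 fold changes of −2.02 in PS (adjusted p = 0.269 in edgeR) and −1.72 in IFPS (adjusted p = 0.6).

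The difference of the IF effect between cell types was tested in a fit of all 36 cell libraries, added after the data were seen. For ENSRNOG00000051372 the IF effect was larger in adipocytes than in MECs by 3.06 ± 0.51 (SE) on the log2 scale, with an adjusted p of 3.3e-05 in edgeR. It was larger than in fibroblasts by 3.29 ± 0.65, with an adjusted p of 0.000235 in edgeR. Each call remained when any 1 of the 36 libraries was left out, with adjusted p up to 0.000195 and 0.00216. In each of these contrasts 4 of 23 tested members passed, with a larger effect in adipocytes, beside 43.2% and 41.2% of all 15928 genes. The count against MECs was 2 without wildtype MEC 2 (39.3% of genes) or IF MEC 2 (39.2%). It was 7 without IF adipocyte 2 (50.8% of genes). The count against fibroblasts was 2 without IF adipocyte 3 (34.8% of genes). Each of these fits tested 25 members. The PS effect differed between adipocytes and fibroblasts for 1 member, ENSRNOG00000051372 (6.71% of genes), with 3, 2 and 1 counts in PS adipocytes. It did so for 4 without IF adipocyte 2 (10% of genes) and for 3 without PS fibroblast 1 (5.98%). The count was 2 without any 1 of wildtype MEC 2, wildtype adipocytes 1 and 2, wildtype fibroblast 2 and PS fibroblast 2. In those fits 3.27% to 7.32% of genes passed. In the other 3 contrasts 0 members passed in edgeR. These were the PS effect against MECs (2.35% of genes, 3 members at an unadjusted p under 0.05) and the IFPS effect against MECs (0.665%, 4 members) and against fibroblasts (1.51%, 5 members). Each of the 3 gave 1 member without IF adipocyte 2 (1.38% to 4.96% of genes) and without IFPS adipocyte 2 (0.647% to 2.24%). The PS effect against MECs also gave 1 without IFPS adipocyte 1 (2.39% of genes) or IF adipocyte 3 (2.45%). The IFPS effect against fibroblasts gave 1 without wildtype adipocyte 1 (3.18%) or wildtype fibroblast 3 (3.99%).

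In fibroblasts 9 members were tested. The member ranked 10 was higher in PS fibroblasts, where 21.7% of 13879 genes passed. It had 5.15, 4.08 and 7.48 CPM in PS and 1.68, 2.80 and 3.11 CPM in wildtype fibroblasts, which did not overlap. The log2 fold change was 1.20 ± 0.29 (SE), with an adjusted p of 0.0158 in edgeR, and the call was lost without PS fibroblast 3 (adjusted p = 0.0573). In IF fibroblasts no member passed (7.66% of genes), with 2 members at an unadjusted p under 0.05. The same member had 5.59, 6.12 and 3.65 CPM there, with an adjusted p of 0.0512 in edgeR, and was the 1 member called in DESeq2. In IFPS fibroblasts 0 members passed (0.0648% of genes), with 1 at an unadjusted p under 0.05 and 0 in DESeq2. Without wildtype fibroblast 3, 1 member passed in IFPS fibroblasts, ENSRNOG00000011599. It was lower in IFPS, with 0.269, 0.438 and 0.47 CPM against 1.72, 0.598 and 0.694 CPM in wildtype fibroblasts. Without PS fibroblast 1, 2 members passed in PS fibroblasts, the ones ranked 6 and 10, both higher in PS.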

How the data were processed

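Per the labels' protocols, mRNA libraries were read from both ends, 50 bp each. Trim Galore, STAR 2.5.2b and the build Rnor_6.0 are named in the submitters' processing notes. The deposited values are raw counts, whole numbers per Ensembl gene in 80 columns, and 0 columns were unassigned. The counter and its use of strand are not given in the sources used here, so overlapping or near-identical genes are uncertain. Groups came from the tissue and genotype labels, and replicate numbers of tumors are only names. The titles of IFPS tumors 5 and 6 share their first part, and the labels do not say whether they came from the same animal. The tests treated them as separate samples. The members, lists and tests were chosen with earlier results of these data known.

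Counts were tested with edgeR 4.0.16 (quasi-likelihood, TMM, filterByExpr) in R 4.3.3, 1 fit per tissue, with an adjusted p under 0.05 as the threshold. Alternatives were DESeq2 1.42.0, RLE size factors, no filter, fits of only the groups compared, and leaving out each library. The tests were checked on simulated counts. The rule for named genes asked for symbols, gave none, and allowed 4 identifiers. The planned pathway, marker and motif lists could not be matched and were not analysed here.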

Additional observations from a re-analysis of the deposited data

Results flagged for a closer look

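In 7 of 114 sets of tumors (a member within a kind of tumor) 1 library stood apart from the rest by Dixon's criterion on log2(CPM + 0.1), and chance alone sets apart about 1 in 20 groups. Among the members described above, ENSRNOG00000051372 was low in PS tumor 8 (4.51 CPM), ENSRNOG00000015401 was low in PS tumor 9 (0 CPM) and the member ranked 34 was high in IFPS tumor 8 (91.4 CPM). Wildtype pad 6 had 1 member at 2 CPM or more, and the other 5 wildtype pads had 0.

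The effect of a line differed between cell types in an edgeR test of the difference itself. The IF effect was larger in adipocytes than in MECs for the members ranked 10, 4, 13 and 29, by 1.24, 2.003, 3.06 and 3.26 on the log2 scale. It was larger in adipocytes than in fibroblasts for the members ranked 13, 2, 20 and 12, by 3.29, 5.44, 5.07 and 4.50. With 1 library left out, the calls against MECs held in 18, 29, 36 and 33 of 36 fits, in the order given. Those against fibroblasts held in 36, 35, 27 and 32. The PS effect was smaller in adipocytes than in fibroblasts for the member ranked 13, by −3.02. That member had 3, 2 and 1 counts in PS adipocytes and 8, 10 and 10 in wildtype adipocytes. Of all genes, 43.2%, 41.2% and 6.71% passed in these 3 contrasts. In the other 3 contrasts of this fit, PS and IFPS effects against MECs and the IFPS effect against fibroblasts, 0 members passed, with 3, 4 and 5 at an unadjusted p under 0.05. For the members ranked 2, 12 and 20 the values rest on at most 0.229 CPM in wildtype and IF adipocytes and fibroblasts. In fibroblasts the member ranked 2 had counts of 0, 0 and 0 in IF and 1, 5 and 2 in wildtype. In adipocytes it had 4, 0 and 1 in IF and 1, 1 and 1 in wildtype. The member ranked 29 had at most 0.233 CPM in wildtype and IF adipocytes, and 1.41, 0.303 and 0.221 CPM in wildtype MECs. Its call was lost without wildtype MEC 1, wildtype adipocyte 1 or IF adipocyte 1. A fitted fold change at such levels depends on the prior count.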

How the results depend on the processing

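The number of members was set by the rule. With an offset of 1 CPM 6 members remained of the 38, with an 8-fold limit 11, and with the lowest quartile of tumors in place of the median 4. Leaving out single libraries gave 32 to 50 members, the lowest without IF tumor 3 and the highest without IF tumor 2. Between PS and IF tumors, DESeq2, a fit of these groups alone and the MEC-enriched covariate each called 2 members, and 4 were called without the 3 IFPS tumors. Between IFPS and IF tumors the fit of these groups alone called 1 and the fit without the 3 IFPS tumors 5. In IF fibroblasts DESeq2 and the unfiltered fit each called 1. Leaving out single libraries gave 0 to 1 member for PS against IF tumors, 1 to 2 for IFPS against IF tumors and among the 3 kinds, 0 to 1 in PS MECs, 4 to 5 in IF adipocytes, 0 to 2 in PS fibroblasts and 0 to 1 in IFPS fibroblasts, and 0 in the other 9 comparisons. For the effects compared between cell types it gave 2 to 7 members (IF, MECs), 2 to 5 (IF, fibroblasts), 0 to 1 (PS, MECs), 1 to 4 (PS, fibroblasts), and 0 to 1 for IFPS against each. The cause of these shifts was not tested. Shares of all genes in the alternative tumor fits are not given here, so nothing particular to the members is read from those counts. The other 78 of 89 alternatives for a count stayed within 1.5 times the main count, and a main count of 0 that stayed 0 was included. Most main counts against wildtype were 0, so this number does not measure how stable the calls were. No log2 fold change of a called member changed sign. The planned epithelial marker covariate was not run. No paired analysis was possible because the groups compared within a tissue share no title number and tumors carry none, except where effects were compared between cell types, since MECs, adipocytes and fibroblasts share title numbers. There a replicate block on that number, added after the data were seen, gave 3 and 3 members for IF in place of 4 and 4, left 1 for PS against fibroblasts and gave 0 in the other 3. Deviations of same-numbered samples correlated above 0.1 in 12 of 12 pairs of MECs and fibroblasts, 6 of 12 of adipocytes and fibroblasts and 1 of 12 of MECs and adipocytes, and the own number was the best match in 12, 8 and 7. Most members lay within a few counts of the detection limit in cells, where 31, 29 and 16 of 38 members were not tested in adipocytes, fibroblasts and MECs.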
